A study of Mus musculus with 9 samples.

Results

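Tubulin genes of the mouse heart were followed over the first 10 weeks of life. Of 7 tubulin genes chosen for this description, 6 had a probe set that the platform's table assigns to a single gene, among 19938 genes measured in that way: the alpha-tubulins Tuba8 and Tuba4a, the beta-tubulins Tubb2b, Tubb3 and Tubb6, and the gamma-tubulin Tubg1. Tubb4b, the seventh, is listed only on probe sets that the table assigns to a second gene as well, and was not analysed here. Each of the 6 genes had 1 such probe set. The genes were chosen by their signal differences between the ages on these same arrays, so their own values are given as a description, and no p-value is attached to them.

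Heart muscle of C57BL/6 mice, an inbred strain, was taken 24 hours, 7 days and 10 weeks after birth. RNA was measured on Affymetrix Mouse Gene 1.0 ST microarrays, on which several short probes stand for a gene, with 3 arrays per age and 9 in all. No treatment or mutant is named in the labels, and the ages are the only groups. All signals are on a log2 scale, on which a step of 1 is a doubling, and the array has no read depth, so the number of arrays limits the precision. The labels do not say that replicates came from separate animals, and part of the spread between them may be technical. Some genes given below, such as Ucp1 at 7 days, differed widely between replicates.

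Tubulin is the building block of microtubules. An alpha- and a beta-subunit form a dimer that adds to the microtubule's end, and gamma-tubulin sits in a ring complex that starts new microtubules. Mammals carry several alpha and several beta genes, whose products, the isotypes, differ mostly in a short acidic tail that enzymes modify by adding or removing tyrosine and glutamate. In dividing cells microtubules build the mitotic spindle; in the muscle cells of the adult heart they run between the myofibrils, carry cargo and resist contraction.

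The libraries held heart muscle at every age. Each of 8 cardiomyocyte markers lay above the median signal of all genes (5.57) on at least 1 array. Their summed signal ran from 15.44 to 15.52 over the 9 arrays. The sum is led by the brightest markers, which lay near the highest value of the data (13.583), so it may miss a change in these cells' share. The summed log2 signal of 8 macrophage markers rose with age (9.50 to 9.64, then 10.16 to 10.26, then 11.30 to 11.40). In the model described below, 5 of the 8 were called higher in the first week, beside 5.27% of all genes. Between 7 days and 10 weeks 8 of 8 were, beside 17.0%, and over the whole span 7 of 8, beside 19.5%. The summed signal of 15 mitosis genes dropped from 11.81 to 12.30 on the younger arrays to 8.75 to 9.09 at 10 weeks. Some arrays stood apart. Ucp1, a gene of brown fat, read 11.23 and 9.27 on 7-day replicates 2 and 3 and at most 4.30 on all other arrays. Alb, a gene of liver, read 7.81 on 7-day replicate 2 and at most 6.04 elsewhere, and Scgb1a1, a gene of the airway, read 6.83 on that array, 5.83 on 24-hour replicate 1 and at most 2.76 elsewhere. These genes were named after their values were seen, and results that changed without 7-day replicates 2 and 3 are given with that value. Myl7, a gene of atrial muscle and, like Eif2s3y and Xist, also named after its values were seen, read 4.70, 8.43 and 7.52 on the 10-week arrays and at least 10.27 on the younger ones. Eif2s3y, on the Y chromosome, read 6.06 to 7.70 on the younger arrays and 2.87 to 3.30 at 10 weeks, while Xist, expressed from the inactive X chromosome, read 8.26 to 9.56 on all 9 arrays. In both comparisons with 10 weeks, age and the share of male RNA therefore cannot be told apart. Nor can age and the share of atrial muscle, so far as Myl7 reads it. The younger ages overlapped in Eif2s3y and in Myl7. In whole tissue, fewer cells of a type and less RNA per cell cannot be told apart either.

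Of the 6 tubulin genes, Tuba8 and Tuba4a were higher at each later age. Tubb2b was lower at each later age, Tubb6 was level in the first week and lower at 10 weeks, Tubg1 moved little, and Tubb3 lay near the bottom of the scale throughout. Between 24 hours and 10 weeks the differences ran from 4.35 for Tuba8 to -2.51 for Tubb2b.

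**Figure D1:**
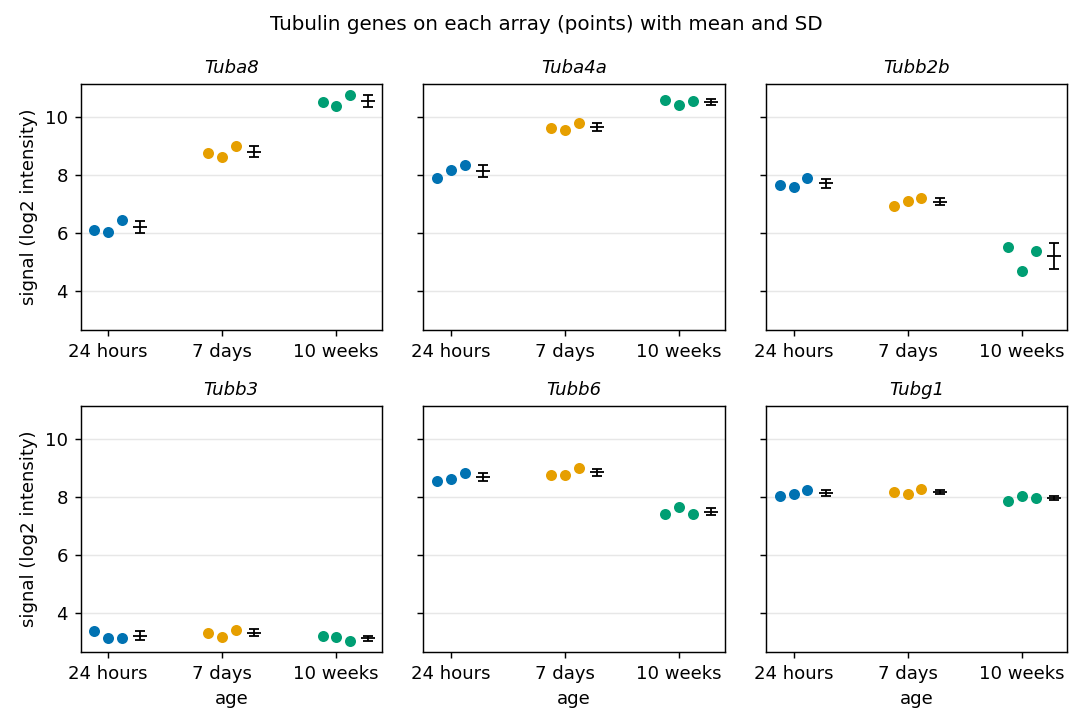
Log2 signal of the 6 tubulin genes (vertical axis) at 24 hours, 7 days and 10 weeks (horizontal axis); each point is 1 array, and the bar beside each age gives the mean and SD of 3 arrays. Tuba8 climbs from 6.20 to 10.55 and Tuba4a from 8.14 to 10.52, while Tubb2b drops from 7.71 to 5.20 and Tubb3 stays between 3.03 and 3.42.

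Tuba8 (probe set 10541301, chromosome 6) encodes an alpha-tubulin known from heart, skeletal muscle and testis. Its signal was 6.11, 6.05 and 6.45 on the 24-hour arrays, 8.77, 8.62 and 9.0 on the 7-day arrays and 10.51, 10.38 and 10.77 on the 10-week arrays. The ages did not overlap, and the spread within an age (SD 0.19 to 0.21, n = 3) was small beside either step. The first week brought a difference of 2.59 ± 0.13 (SE), a 6.04-fold higher signal, and the weeks up to adulthood another 1.75 ± 0.13, or 3.37-fold. Over both steps Tuba8 ended 20.4-fold higher than at 24 hours.

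Tuba4a (probe set 10355806, chromosome 1) encodes an alpha-tubulin whose gene, unlike those of several other alpha-tubulins, does not encode a terminal tyrosine. It measured 7.91, 8.19 and 8.34 at 24 hours, 9.61, 9.56 and 9.80 at 7 days and 10.59, 10.43 and 10.55 at 10 weeks. Here too each age lay wholly above the one before. The steps were 1.51 ± 0.10 (SE) and 0.87 ± 0.10, which together made a 5.2-fold higher signal. For both alpha-tubulins the first week held the larger of the steps on the log2 scale.

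The stretches before the start of these genes are shown because Tuba8 and Tuba4a were the members that were higher at each later age. RefSeq's promoter table (GRCm38.p6) holds 3 of the 6 members, Tuba8, Tuba4a and Tubb3, and the 250 bases before the listed start are given for the first pair, 5′ to 3′ on the gene's strand. The Tuba8 stretch is chr6:121210484-121210733 on the plus strand and the Tuba4a stretch chr1:75219295-75219544 on the minus strand. Capitals mark matches, on either strand, to any of 6 short motifs searched. They were the start-site element TATAAA, the Sp1-type element GGGCGG, the promoter element CCAAT, the muscle element CATTCC, known as MCAT, the bHLH-factor element CANNTG, known as the E-box, and a MEF2-type site; no match to one overlapped a match to another in the stretches shown.
Tuba8: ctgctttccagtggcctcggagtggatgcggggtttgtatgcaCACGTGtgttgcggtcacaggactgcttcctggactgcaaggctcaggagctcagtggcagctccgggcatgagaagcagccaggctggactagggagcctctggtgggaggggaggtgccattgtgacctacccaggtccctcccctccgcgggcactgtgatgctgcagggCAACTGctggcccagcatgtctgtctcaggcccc
Tuba4a: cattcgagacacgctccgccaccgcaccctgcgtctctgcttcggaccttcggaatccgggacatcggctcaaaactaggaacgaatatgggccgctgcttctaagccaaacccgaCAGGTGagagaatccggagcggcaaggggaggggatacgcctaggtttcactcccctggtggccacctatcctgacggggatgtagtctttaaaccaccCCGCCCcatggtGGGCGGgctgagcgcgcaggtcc
In the Tuba8 stretch CANNTG matched at 207 and 34 bases before the start (first base of the match), and none of the other 5 motifs did. In the Tuba4a stretch CANNTG matched at 134 bases before the start and GGGCGG at 35 and 23. CANNTG is found in 66.2% and GGGCGG in 32.7% of the 32851 stretches of this length in the table, against 12.4% for TATAAA, 33.8% for CCAAT, 12.6% for CATTCC and 3.20% for the MEF2-type site. These matches describe letters only, and a missing match says only that the letters are not in this window. Both stretches were richer in G and C (63.6% and 61.6%) than the median stretch (52.4%).

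Tubb2b (probe set 10408613, chromosome 13) encodes a beta-tubulin best known from the developing brain. Its signal was 7.67, 7.58 and 7.89 at 24 hours, 6.93, 7.11 and 7.20 at 7 days and 5.53, 4.69 and 5.39 at 10 weeks. Each age lay wholly below the one before, with the widest spread at 10 weeks (SD 0.45), where replicate 2 was the lowest. The steps were -0.63 ± 0.19 (SE) and -1.88 ± 0.19, and the later step was a 3.67-fold lower signal. Tubb2b lies beside Tubb2a on chromosome 13 with 0 protein-coding genes between them in RefSeq's annotation. The platform also holds a separate probe set shared by both genes. Whether the Tubb2b probe set used here also picks up signal of this close copy was not tested. The Tubb2a probe set itself did not follow Tubb2b in the first week, when it measured 7.92 ± 0.10 and 8.10 ± 0.14 (SD, n = 3).

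Tubb6 (probe set 10456400, chromosome 18) encodes a beta-tubulin found in many tissues. It measured 8.57, 8.62 and 8.84 at 24 hours and 8.77, 8.78 and 9.01 at 7 days, groups that overlap, and 7.42, 7.65 and 7.43 at 10 weeks. All 10-week arrays lay below all younger ones. The difference from 7 days to 10 weeks was -1.35 ± 0.10 (SE), a 2.56-fold lower signal, against 0.17 ± 0.10 in the first week.

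Tubg1 (probe set 10381250, chromosome 11) encodes the gamma-tubulin of the centrosome, which starts new microtubules. Its arrays read 8.04, 8.11 and 8.24 at 24 hours, 8.17, 8.10 and 8.27 at 7 days and 7.88, 8.03 and 7.96 at 10 weeks. The younger ages overlapped and the 10-week arrays lay just below them, by 0.22 ± 0.07 (SE) from 7 days. With each array centred on its median that difference was -0.16.

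Tubb3 (probe set 10576332, chromosome 8) encodes the beta-tubulin used as a marker of neurons. Its signal was 3.39, 3.13 and 3.14 at 24 hours, 3.32, 3.18 and 3.42 at 7 days and 3.19, 3.16 and 3.03 at 10 weeks. All ages overlapped, and no array came near the median signal of all genes (5.57). No detection flags come with the values, so a transcript below the array's reach and a low level cannot be told apart. Of 10 neuron markers measured, 9 also lay below that median on all arrays; the other, Uchl1, named after its values were seen, measured 6.97 ± 0.10 at 24 hours and 5.58 ± 0.18 at 10 weeks (SD, n = 3).

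In the linear model fitted to all 19938 genes with limma, calls were made where the Benjamini-Hochberg adjusted p lay under 0.05. Among the 6 tubulin genes 2 were called between 24 hours and 7 days, both higher, where 10.1% of all genes were called, 5.27% higher and 4.81% lower. Between 7 days and 10 weeks 2 were called higher and 3 lower, where 35.9% of all genes were called, 17.0% higher and 18.9% lower. Between 24 hours and 10 weeks 2 were higher and 2 lower, beside 40.1% of all genes, 19.5% higher and 20.6% lower. Ages that did not overlap were seen in 3 of the 6 genes in the first week (27.1% of all genes; 2 members higher against 12.6% and 1 lower against 14.5%). The same held for 5 genes in the later step (44.3% of all genes; 2 higher against 22.8% and 3 lower against 21.5%) and for 5 over the whole span (48.2% of all genes; 2 higher against 24.6% and 3 lower against 23.6%). These counts follow from how the genes were chosen and are not evidence of their own. The steps share the 7-day arrays, and the third comparison shares its arrays with both. In the first week 1050 of all genes were called higher and 959 lower, or 888 and 1247 with each array centred on its median; in the later step 3388 were higher and 3777 lower, or 5247 and 3307 with centred arrays.

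A few of the members' calls turned on the setting. The first-week difference of Tubb2b was not called, but was called with centred arrays, with only the 6 arrays compared, with only genes above the median signal, with the replicate number as a block, and without 10-week replicate 1 or 2. The Tubg1 difference after 7 days was called, but not with centred arrays, nor without 7-day replicate 1 or 3, 7-day replicates 2 and 3 together, or 10-week replicate 1 or 3. With 7-day replicates 2 and 3 left out for their Ucp1 signal, a single array stands for that age and is assumed to vary like the others; the first-week difference was 2.57 for Tuba8 and 1.47 for Tuba4a, and the later one was 1.78 and 0.91.

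Within the younger ages the members mostly had the same highest array. How many of all genes had that order was not counted, so it need not be particular to the members. Tubb2a, which is no member, also read highest on replicate 3 at both younger ages. Replicate 3 was the highest of the 3 arrays for all 6 genes at 7 days and for 5 of 6 at 24 hours, Tubb3 being the exception, whereas at 10 weeks the highest array was replicate 1 for 3 genes, replicate 2 for 2 and replicate 3 for 1. The part of this order in the differences between ages was not tested; leaving out any 1 array moved the first-week difference of Tuba8 only between 2.49 and 2.72.

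Skeletal muscle also expresses Tuba8, so its markers were read beside it. Of 11 skeletal muscle markers 8 lay below the median signal on all 9 arrays, and their summed log2 signal ran from 8.37 to 8.51 on the younger arrays and from 8.48 to 8.61 at 10 weeks. In the later step 1 of these 11 was called, higher, beside 35.9% of all genes. Over the whole span 1 was higher and 1 lower, beside 40.1% of all genes called. The called genes are named after their values were seen. Mybpc2, a myosin-binding protein of fast muscle, measured 5.27 ± 0.27, 5.79 ± 0.16 and 6.43 ± 0.29 (SD, n = 3) at the ages in order, and was 0.64 higher in the later step (limma, adjusted p = 0.0111) and 1.16 higher over the whole span (adjusted p = 2.22e-04). Myh8, the perinatal myosin, measured 5.92 ± 0.27, 5.61 ± 0.16 and 5.35 ± 0.06 and fell by 0.58 over the whole span (adjusted p = 0.00446). The fast myosin gene Myh4, also named after its values were seen, measured 3.64 ± 0.02, 3.61 ± 0.18 and 3.58 ± 0.07. The part of skeletal muscle RNA in the Tuba8 signal was not tested.

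The rest of the tubulin family was followed by a list of 13 further tubulin genes, of which 11 had a probe set of a single gene. The abundant isotypes of this list fell between 7 days and 10 weeks. Tubb5, a beta-tubulin common in dividing cells, measured 10.79 ± 0.09, 10.65 ± 0.06 and 9.08 ± 0.11 (SD, n = 3) at 24 hours, 7 days and 10 weeks, and fell by 1.57 in the later step (limma, adjusted p = 8.49e-08). Tuba1a, an alpha-tubulin of neurons and other cells, measured 10.40 ± 0.07, 10.46 ± 0.12 and 9.13 ± 0.18 and fell by 1.34 (adjusted p = 1.41e-06). Tubb2a, the neighbour of Tubb2b, went from 8.10 ± 0.14 to 7.02 ± 0.09, and fell by 1.08 (adjusted p = 3.66e-06). All 10-week arrays lay below all younger ones for these 3 genes.

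In the first week, where 10.1% of all genes were called, 1 of the 11 genes of this list was. That gene was Tubb4a, a beta-tubulin known mainly from the nervous system. It measured 6.00, 6.08 and 5.93 at 24 hours, 7.25, 7.29 and 7.19 at 7 days, and 5.82, 5.88 and 5.59 at 10 weeks. The 7-day arrays stood above all others: Tubb4a rose by 1.24 ± 0.08 (SE, adjusted p = 1.65e-05) and then fell by 1.48 (adjusted p = 3.5e-07).

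Tuba3a was the 1 gene of the 11 called higher at 10 weeks than at 7 days, by 0.26 (adjusted p = 0.047). That call was lost under 11 of 17 alternatives, among them each setting that left out 1 array other than 10-week replicate 3. The 6 genes that were not called in that step were Tuba3b, Tubal3, Tubb1, Tubg2, Tubd1 and Tube1, with differences from -0.18 for Tube1 to 0.17 for Tubal3. Tubg2, the second gamma-tubulin, lies next to Tubg1 on chromosome 11 and measured 5.66 ± 0.04 at 7 days and 5.78 ± 0.09 at 10 weeks (SD, n = 3; adjusted p = 0.255). Of this list 1 of the 11 rose and 4 fell between 7 days and 10 weeks, beside 35.9% of all genes called. The list's median was -0.04 against 0.04 for all genes.

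**Figure D2:**
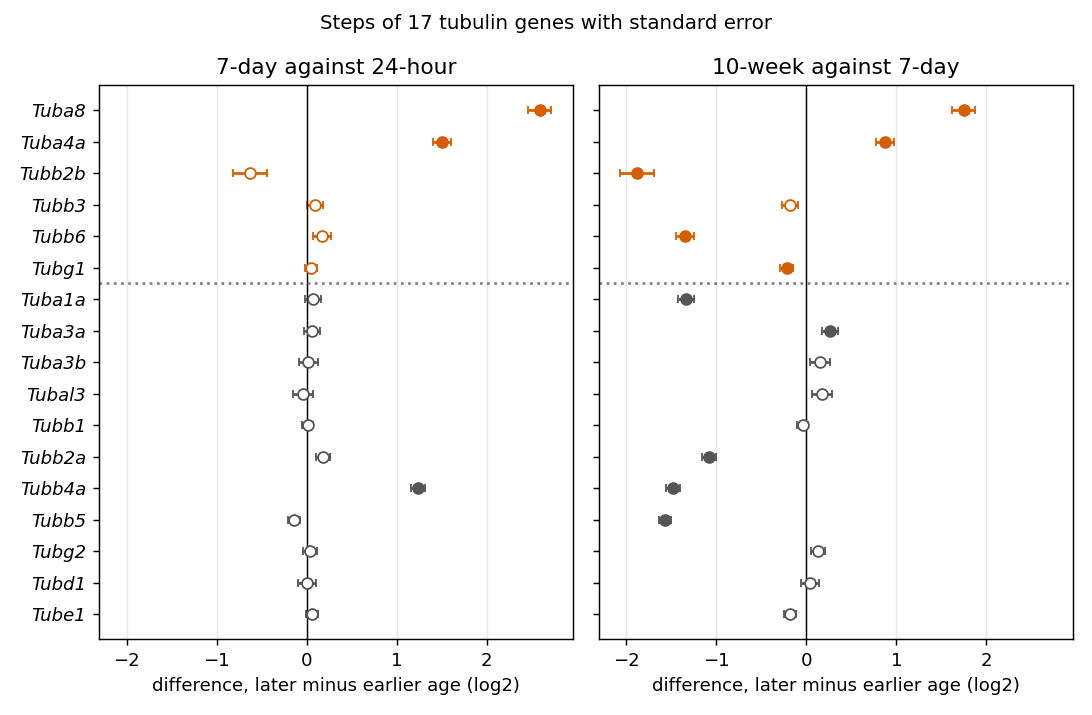
Log2 difference (horizontal axis, later minus earlier age, with its standard error) of 17 tubulin genes in the first week (left) and from 7 days to 10 weeks (right); orange marks the 6 chosen genes, grey the 11 others, and filled points were called by limma. Tuba8 and Tuba4a lie to the right in both panels, while Tuba1a, Tubb2a, Tubb4a and Tubb5 lie left of -1 in the right panel only.

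Tubulin must be folded before it can be used, by the prefoldin and chaperonin complexes and by cofactors that assemble the dimer. Of 21 folding genes 1 rose and 3 fell in the first week, where 10.1% of all genes were called, and 2 rose and 7 fell between 7 days and 10 weeks, where 35.9% were, with medians of -0.08 and -0.06 against -0.00 and 0.04 for all genes. The chaperonin subunit gene Cct2 went from 10.47 ± 0.07 to 10.03 ± 0.01 and 9.62 ± 0.08 (SD, n = 3; adjusted p = 7.01e-04 and 1.85e-04 for the steps). Tcp1, another subunit, fell by 0.28 in the first week (adjusted p = 0.00311; 0.0741 without 7-day replicates 2 and 3). Cct3 fell by 0.25 in the first week (adjusted p = 0.022), a call lost in 5 of 17 alternatives, and by 0.49 in the later step, as did Cct6a. Tbcd, a cofactor of dimer assembly, was 0.61 lower at 10 weeks than at 24 hours (6.95 ± 0.08 and 6.33 ± 0.17; adjusted p = 2.28e-04). Over the whole span 5 folding genes were called higher and 10 lower, beside 40.1% of all genes called. The 5 higher ones, named after their values were seen, were the prefoldin genes Pfdn1, Pfdn2 and Pfdn5 with Tbcel and Arl2. Their differences ran from 0.29 for Tbcel to 0.43 for Pfdn5. Another prefoldin gene, Vbp1, fell from 8.14 ± 0.06 to 7.53 ± 0.16. The chaperonin serves other proteins too, actin among them. The first-week count of 4 was 2 without 24-hour replicate 2 or 3 or 7-day replicate 2, and 1 without 7-day replicates 2 and 3 together.

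Of 23 enzymes and partners that modify tubulin, 1 rose and 5 fell in the first week, beside 10.1% of all genes called. From 7 days to 10 weeks 3 rose and 6 fell, a share near the 35.9% of all genes. The medians of the steps were -0.01 and 0.05. With centred arrays 6 rose and 6 fell in the later step, where 8554 of all genes were called against 7165 without centring. Vash2, which removes the terminal tyrosine of alpha-tubulin, measured 7.02, 7.13 and 7.28 at 24 hours, 6.43, 6.47 and 6.40 at 7 days and 4.82, 4.61 and 4.94 at 10 weeks. Its ages did not overlap, and it fell by 0.71 (adjusted p = 9.96e-04) and then by 1.64 (adjusted p = 4.42e-07), 5.11-fold over both steps. Svbp, the partner of the Vash enzymes, named after its values were seen, went from 7.49 ± 0.14 to 6.85 ± 0.14 between 7 days and 10 weeks (SD, n = 3; adjusted p = 2.93e-04). Ttl, which puts the tyrosine back, rose from 7.07 ± 0.06 to 7.53 ± 0.07 in the first week (adjusted p = 0.00127).

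Glutamate chains on the tail are shortened by Agtpbp1 and built by Ttll enzymes. Agtpbp1 measured 7.63, 7.73 and 7.79 at 24 hours, 7.79, 7.96 and 7.98 at 7 days and 9.66, 9.37 and 9.62 at 10 weeks. It rose by 1.64 in the later step (3.11-fold, adjusted p = 2.91e-07), with every 10-week array above every younger one. Ttll7 rose in the same step by 1.10, from 5.52 ± 0.19 to 6.62 ± 0.10 (adjusted p = 2.62e-05). Other Ttll genes, named after their values were seen, fell in that step. Ttll1 went from 8.88 ± 0.01 to 8.29 ± 0.09 (limma, adjusted p = 1.58e-05) and Ttll4 from 6.28 ± 0.13 to 5.85 ± 0.10 (adjusted p = 0.0019). The remaining Ttll genes of the list were not called in it. The deacetylase gene Hdac6, which acts on alpha-tubulin, fell by 0.44 in the first week, from 6.78 ± 0.04 to 6.34 ± 0.01 (SD, n = 3; adjusted p = 9.06e-04). Without 7-day replicates 2 and 3, the first-week calls of Vash2 (adjusted p = 0.0564) and Ttl (adjusted p = 0.061) were lost, and 1 enzyme was called in that step, while 3 rose and 4 fell in the later one.

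Tubg1 works within the gamma-tubulin ring complex, whose other subunits and anchors made a list of 12. In the first week 2 were called, both lower, beside 10.1% of all genes. Between 7 days and 10 weeks 2 rose and 5 fell, beside 35.9% of all genes (medians -0.04 and -0.26 against -0.00 and 0.04 for all genes). With centred arrays 3 rose and 3 fell in that step, where 8554 of all genes were called against 7165 without centring. Tubgcp2, a core subunit, went from 7.27 ± 0.06 to 6.93 ± 0.06 (SD, n = 3; adjusted p = 0.00101), and the anchor gene Nin from 6.65 ± 0.08 to 6.26 ± 0.14 (adjusted p = 0.00494). Without 7-day replicates 2 and 3 both calls were lost (adjusted p = 0.0562 and 0.133). Pcnt, which encodes the scaffold pericentrin, rose by 0.66 in the later step (adjusted p = 1.66e-05) after a first-week fall of 0.23 (adjusted p = 0.0457) that was lost under 8 of 17 alternatives. The small subunit gene Mzt1 fell by 0.32 in the first week (adjusted p = 0.00558; 0.129 without 7-day replicates 2 and 3), and Nedd1, which recruits the complex, was 0.38 higher at 10 weeks than at 24 hours (adjusted p = 0.00418). The count for the later step was 4 without 7-day replicate 3 or 10-week replicate 1, and 2 without 7-day replicates 2 and 3. For the first week it was 1 without any 1 of the 24-hour arrays, without 7-day replicate 1 or 3 or without 10-week replicate 1, and 0 without 7-day replicates 2 and 3 (limma; 3 at an unadjusted p under 0.05).

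Of 36 proteins that bind microtubules, 3 rose and 2 fell in the first week, beside 10.1% of all genes called, and 9 rose and 10 fell between 7 days and 10 weeks, beside 35.9% (medians -0.03 and 0.03). Stmn1, which encodes stathmin, a protein that binds free tubulin and takes microtubules apart, read 9.37, 9.38 and 9.43 at 24 hours, 9.25, 9.09 and 9.09 at 7 days and 6.92, 6.76 and 6.59 at 10 weeks. It fell by 2.39 in the later step, or 5.23-fold (adjusted p = 2.17e-08). Mapt, which encodes the stabilising protein tau, read 4.82, 4.87 and 4.63, then 5.26, 5.30 and 5.29, then 6.78, 6.95 and 6.67. Its ages did not overlap and it rose by 0.51 (adjusted p = 0.00412) and by 1.52 (adjusted p = 4.31e-07), 4.08-fold in all. The first-week call was lost without 7-day replicates 2 and 3 (0.49, adjusted p = 0.13). Map1b, a microtubule-binding protein of growing nerve cells, went from 8.92 ± 0.26 at 7 days to 7.16 ± 0.23 at 10 weeks (SD, n = 3; adjusted p = 4e-06).

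Map7d3, of a family that links microtubules to motor proteins, fell by 0.60 in the first week (adjusted p = 4.61e-04) and was 1.75 lower at 10 weeks than at 24 hours. Dclk1 rose by 0.47 in the first week (adjusted p = 0.0259), with 7-day values of 5.30, 5.69 and 5.56. That call was lost without each of the 24-hour arrays, 7-day replicate 2 or 3, or both of these (difference 0.26 in that case). The plus-end genes Mapre1, Mapre2 and Mapre3, named after their values were seen, did not move alike after 7 days. Mapre1 fell from 8.28 ± 0.05 to 7.42 ± 0.13 (limma, adjusted p = 4.7e-06) and Mapre2 from 9.39 ± 0.06 to 8.97 ± 0.02 (adjusted p = 9.86e-05). Mapre3 rose from 7.08 ± 0.09 to 8.09 ± 0.15 (SD, n = 3, adjusted p = 3.58e-06). The first-week count of 5 called genes in this list was 10 with only the 6 arrays compared, 11 without 10-week replicate 3, 3 without 24-hour replicate 1 or 2 or 7-day replicate 2 or 3, and 2 without both of these 7-day arrays.

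**Figure D3:**
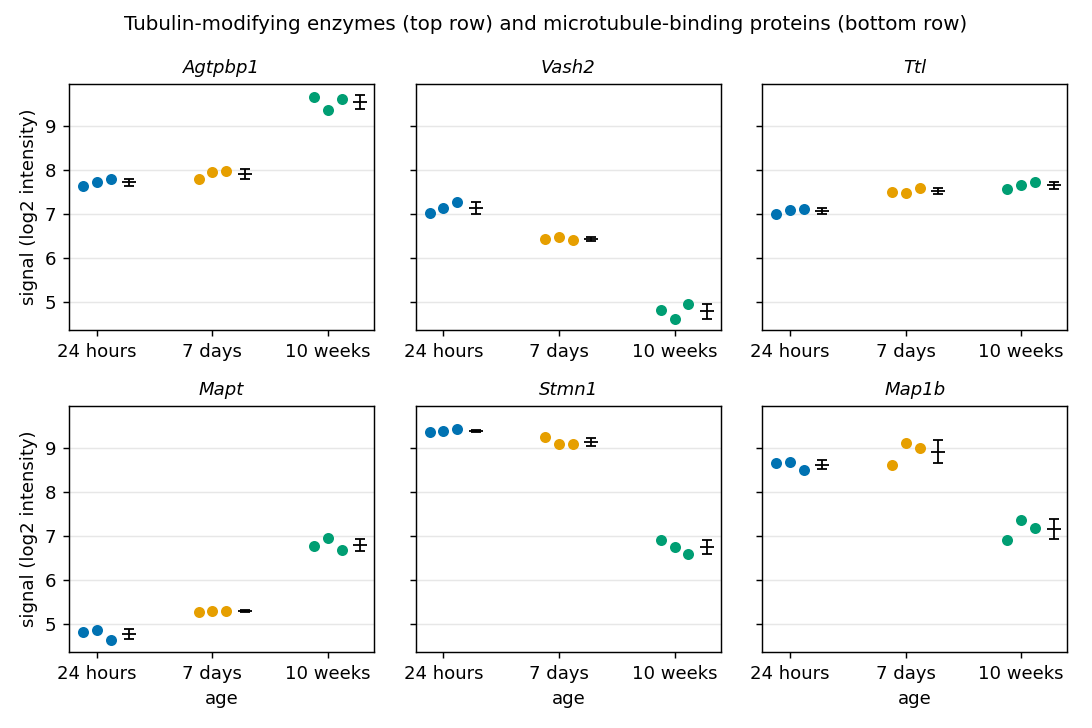
Log2 signal (vertical axis) of 3 tubulin-modifying enzymes, Agtpbp1, Vash2 and Ttl, and 3 microtubule-binding proteins, Mapt, Stmn1 and Map1b, by age (horizontal axis); points are arrays and bars the mean and SD of 3. Vash2 and Stmn1 end at 4.79 and 6.75 after starting at 7.14 and 9.39, while Agtpbp1 and Mapt end at 9.55 and 6.80 after starting at 7.72 and 4.77.

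Mitosis genes were read beside the microtubule genes because the spindle is built from them. All 15 fell between 7 days and 10 weeks, where 35.9% of all genes were called, with a median of -3.08. In the first week, where 10.1% of all genes were called, 5 of the 15 fell, with a median of -0.18. Their part in the lower signals of Tubb2b, Tubb6, Tubb5, Tuba1a and Stmn1 at 10 weeks was not tested. Of 8 fibroblast markers 4 rose in the first week and 6 fell in the later step. Over the whole span 3 were higher and 4 lower. Their summed log2 signal ran from 12.81 to 13.06 at 24 hours, 13.52 to 13.89 at 7 days and 12.84 to 13.05 at 10 weeks. Macrophage markers rose in the later step, 8 of 8. The part of fibroblast and macrophage RNA was not tested either. Of 8 cardiomyocyte markers 2 were called in the first week, both lower, and 1 in the later step, higher. Over the whole span 6 were called, 2 higher and 4 lower. The shares called among all genes in these comparisons were 10.1%, 35.9% and 40.1%, in that order.

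**Figure D4:**
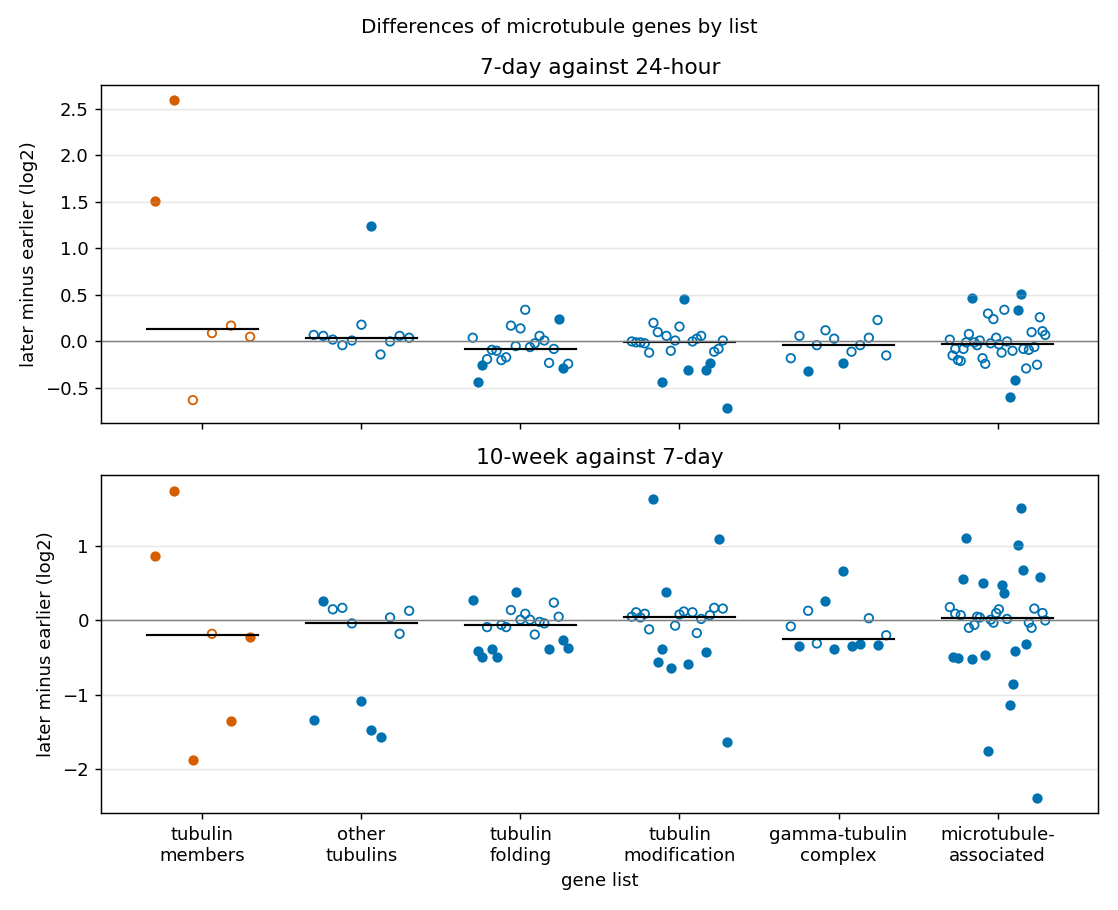
Log2 differences (vertical axis, later minus earlier age) of genes in 6 lists (horizontal axis), in the first week (top) and from 7 days to 10 weeks (bottom); each circle is 1 gene, orange for the 6 chosen genes and filled where limma called it, and the line is the list's median. In the first week Tuba8 (2.59), Tuba4a (1.51) and Tubb4a (1.24) stand above all other genes shown, of which the next is Mapt at 0.51.

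Genes that resembled the members in their course were sought among 9964 other genes whose mean signal lay above the median, by Pearson's r over the 9 arrays, which share the 3 ages. This r describes likeness and carries no test. Closest to Tuba8 were Lrtm1 (r = 0.996), Fblim1 (0.996), which encodes a filamin-binding protein of cell junctions, Me3 (0.996), a mitochondrial malic enzyme, the retinoid receptor gene Rxrg (0.995) and C1qtnf9 (0.994), which encodes a secreted protein. Rxrg went from 4.52 ± 0.14 to 6.68 ± 0.03 and 8.30 ± 0.11 (SD, n = 3), Lrtm1 from 7.09 ± 0.21 to 9.11 ± 0.24 and 10.74 ± 0.04, and Fblim1 only from 7.90 ± 0.04 to 9.05 ± 0.04 over the whole span. Fblim1 was also among the 3 closest to Tuba4a (0.994), with Bsg (0.995), which encodes the surface protein basigin, and Sync (0.992), which encodes syncoilin, a protein of muscle intermediate filaments.

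Closest to Tubb2b were Tmeff1 (r = 0.995), Bcor (0.994) and Kdm6b (0.993), the last of which encode a co-repressor and a histone demethylase. Their fall was smaller, Tmeff1 going from 7.46 ± 0.04 to 7.24 ± 0.04 and 6.44 ± 0.16. For Tubb3, whose signal hardly moved, the closest were Adat2 (0.943), Pusl1 (0.915) and Nubp2 (0.887). Adat2 measured 5.87 ± 0.16, 5.96 ± 0.11 and 5.80 ± 0.07 (SD, n = 3).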

How the data were processed

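Heart RNA of 3 ages was measured on 9 arrays, and the groups come from the ages in the sample titles. The submitters' processing notes name MAS5 5.0, with no step stated; the deposited values are log2 intensities (1.853 to 13.583), with the base inferred because the maximum lies above 11.09, the natural log of the highest 16-bit value. How probes were summarised and arrays normalized is not stated; the array medians lay within 0.075 of each other, and the values were used as deposited.

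Of 35556 features 21789 had 1 gene symbol in the platform table, 1621 had several and the rest were not listed. Of the 21789, 21698 were matched by Entrez id to RefSeq's genes, whose symbol was then used. The probe set with the highest mean was kept per gene. Differences came from limma 3.58.1 (R 4.3.3) with 1 mean per age over all 9 arrays, 6 residual degrees of freedom, eBayes with an intensity trend and Benjamini-Hochberg adjustment over 19938 genes. In simulated data 50 of the 19938 genes were changed at each size, with normal noise drawn separately for each gene and array. Of those changed by 0.5, 70% and 72% were recovered in the first-week and the later comparison. Of those changed by 1, 98% and 100% were recovered. The shares of false calls were 6.22% and 8.37%. Far fewer genes changed there than were called on the real arrays, so these shares need not hold for them. Tables were made with Python 3.11.15.

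The members and gene lists were chosen with earlier results of these data known. Named are all members and measured tubulin genes, the 3 called genes per list and comparison with the largest difference, and the genes with the highest r to Tuba8 (5) and to Tuba4a, Tubb2b and Tubb3 (3 each); others are marked. Listed genes without a probe set of a single symbol, such as Tuba1b and Tuba1c, were left out. The alternatives were array centring, other variance priors, the replicate block, a filter on dim genes, the mean of a gene's probe sets and leaving out arrays. Leaving out 7-day replicates 2 and 3 together was chosen after seeing the data.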

Additional observations from a re-analysis of the deposited data

How the results depend on the processing

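The members were chosen by their differences on these arrays, so their values under the alternatives are a description. Leaving out 1 array gave first-week differences of 2.49 to 2.72 for Tuba8 and 1.40 to 1.61 for Tuba4a, and later differences of 1.64 to 1.85 and 0.82 to 0.94. Over all genes, deviations of same-numbered arrays correlated between -0.174 and 0.133, and those of other pairs between -0.216 and 0.25. This gave no sign of pairing over all genes and does not settle it for a single gene. Tuba8 was highest on replicate 3 and lowest on replicate 2 at every age. The SE of its differences was 0.05 with the replicate number as a block, against 0.13 without it. With the replicate number as a block, 1734 of all genes were called in the first week against 2009, and 1 gene of the gamma-tubulin complex against 2. Without 7-day replicates 2 and 3 together, the first-week difference of Tubb2b was -0.78; 516 of all genes were called in that step, 1 folding gene, 1 modification gene, 0 of the gamma-tubulin complex (limma; 3 at an unadjusted p under 0.05) and 2 microtubule-associated genes, and in the later step 4156 of all genes and 2 of the gamma-tubulin complex. With only the 6 arrays compared, 10 microtubule-associated genes were called in the first week. Leaving out single arrays gave, for the first week, 1149 to 2316 of all genes (1283, 1158 and 1149 without 24-hour replicate 1, 24-hour replicate 2 and 7-day replicate 3), 2 to 6 folding genes, 1 to 2 of the gamma-tubulin complex and 3 to 11 microtubule-associated genes; for the later step 4 to 8 of the gamma-tubulin complex; and, between 24 hours and 10 weeks, 3 to 5 of the other tubulin genes (3 without 24-hour replicate 1 or 2). The cause of these shifts was not tested. The table holds no background measure, so differences to or from a dim signal, such as that of Tubb3, can be too small.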
